A study of Mus musculus with 2 samples.

Results

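The curated RefSeq non-coding transcripts are the mouse RNAs that RefSeq lists under an NR_ identifier, the class it gives to non-coding RNAs backed by evidence and reviewed, as opposed to predicted models. Their probes were found by the letters NR_ and a number in the probe name, which gave 873 probes, and 2 of them, those of Rian and Meg3, were left out. The 871 probes that remained were part of 97836 non-control probes on each array. Of them 867 had a usable spot on both arrays, and 836 of these carried a gene symbol, for 803 genes. By RefSeq gene type 648 belonged to lncRNA genes, 145 to transcribed pseudogenes and 35 to protein-coding genes that also make a non-coding isoform, while 31 matched no gene.

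The study measured RNA of mammary glands of female Mus musculus on 1 single-colour Agilent array per genotype. The control array held a gland of a miR-34a fl/fl mouse, in which the miR-34a gene is flanked by loxP sites. The knockout array held a gland of a miR-34a -/- mouse, made by crossing the floxed line to mice whose Cre recombinase is expressed in the mammary gland. The whole gland was taken, so cells without Cre keep the gene. Whether the control carried Cre, the ages, and whether animals were pooled were not given in the sources used here. The arrays were run to find mRNAs and lncRNAs that differ with loss of miR-34a. With 1 array for each genotype no test across animals was possible: each difference below compares 2 arrays, and a difference by size says nothing of the spread between animals.

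Most curated non-coding genes are lncRNAs, which carry no long reading frame. Many of them are spliced and polyadenylated like mRNAs. Some act on chromatin at the locus that makes them, some serve as hosts from whose introns small nucleolar RNAs or microRNAs are cut, and for many no role is established. Transcribed pseudogenes are degenerate copies of coding genes that still make RNA. MicroRNAs such as miR-34a, a target of p53, guide silencing complexes to sites that match the seed, bases 2 to 8, in messenger and long non-coding RNAs. The mammary gland holds luminal and basal epithelium within fat, vessels and immune cells. In such bulk tissue, fewer cells of a type and less RNA per cell cannot be told apart. Of 45 markers of these cell types fixed for the arrays, only Esr1 had a probe with a name, one for a non-coding isoform. Gene names were matched to curated non-coding identifiers only, so probes of coding mRNAs could not be found by name. The Esr1 isoform probe was above background on neither array, which is no measure of the coding mRNA. The makeup of the tissue was therefore not checked. None of the named probes reported Mir34a, so the deletion was not checked on these arrays either.

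The first sequences shown are those around the transcription start of 4 genes taken up below, as given by RefSeq on GRCm38.p6. Snhg5 (chr9:88522848-88523147, minus strand) and Snhg8 (chr3:123508287-123508586, minus strand) are host genes of small nucleolar RNAs with CpG-rich promoters, a class that was detected in a larger share of probes. The promoters of 0610005C13Rik (chr7:45575127-45575426, minus strand) and 1810019D21Rik (chr8:106135150-106135449, plus strand) are poor in CG and belong to a gene much higher and a gene much lower on the knockout array. Each runs 5′ to 3′ over 300 bases, from 250 before the start to 50 from it onward, with every CG in capitals. The Snhg5 window held 36 CG and the Snhg8 window 30, against 7 in that of 0610005C13Rik and 6 in that of 1810019D21Rik.
Snhg5: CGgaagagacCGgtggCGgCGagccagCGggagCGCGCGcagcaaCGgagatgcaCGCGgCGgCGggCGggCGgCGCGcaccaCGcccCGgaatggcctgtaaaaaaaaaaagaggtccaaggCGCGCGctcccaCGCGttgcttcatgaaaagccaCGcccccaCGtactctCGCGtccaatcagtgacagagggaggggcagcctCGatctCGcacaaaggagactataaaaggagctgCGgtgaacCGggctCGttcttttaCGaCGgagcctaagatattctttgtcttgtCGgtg
Snhg8: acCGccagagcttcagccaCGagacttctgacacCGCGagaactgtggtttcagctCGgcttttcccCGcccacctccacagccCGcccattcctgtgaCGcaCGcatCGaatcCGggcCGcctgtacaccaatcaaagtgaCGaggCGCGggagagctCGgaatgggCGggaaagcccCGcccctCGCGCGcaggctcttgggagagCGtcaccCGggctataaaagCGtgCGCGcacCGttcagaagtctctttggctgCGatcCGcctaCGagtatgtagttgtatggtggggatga
0610005C13Rik: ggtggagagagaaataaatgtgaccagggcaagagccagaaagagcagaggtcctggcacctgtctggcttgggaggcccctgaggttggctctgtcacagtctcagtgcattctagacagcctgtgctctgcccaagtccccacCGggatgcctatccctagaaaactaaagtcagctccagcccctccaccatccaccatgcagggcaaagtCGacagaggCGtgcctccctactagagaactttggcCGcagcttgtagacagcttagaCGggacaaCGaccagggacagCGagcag
1810019D21Rik: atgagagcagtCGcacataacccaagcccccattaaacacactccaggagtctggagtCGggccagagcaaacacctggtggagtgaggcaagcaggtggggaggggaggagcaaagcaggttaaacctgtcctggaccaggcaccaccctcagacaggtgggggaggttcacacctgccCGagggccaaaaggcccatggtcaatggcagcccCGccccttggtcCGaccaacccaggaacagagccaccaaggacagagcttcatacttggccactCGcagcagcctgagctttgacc

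The second set shows mature microRNAs whose genes lie inside a curated non-coding gene with a probe on the array, with the seed in capitals, beside miR-34a-5p, the microRNA deleted here. They are shown because the probes report the host transcripts and not these products. In these lines let-7b and let-7c, which lie in Lncppara, share a seed, and so do miR-15a and miR-16, which lie in Dleu2. MicroRNAs of 1 host can also have different seeds, as miR-27b-3p (UCACAGU) and miR-24-3p (GGCUCAG) in Aopep do. None of the hosts' microRNAs printed here has the seed of miR-34a-5p.
miR-34a-5p: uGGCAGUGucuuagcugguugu
miR-101a-3p: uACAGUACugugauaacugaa
miR-182-5p: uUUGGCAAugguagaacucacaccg
miR-96-5p: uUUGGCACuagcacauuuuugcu
miR-183-5p: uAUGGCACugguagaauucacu
miR-22-3p: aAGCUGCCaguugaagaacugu
let-7b-5p: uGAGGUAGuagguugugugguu
let-7c-5p: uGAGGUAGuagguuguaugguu
miR-15a-5p: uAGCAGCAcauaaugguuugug
miR-16-5p: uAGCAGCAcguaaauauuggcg

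Most curated non-coding probes gave a signal in the gland. A probe was called detected where the scanner software marked each of its usable spots as well above background. On the control array 587 of 867 probes (67.7%) were detected, and on the knockout array 567 (65.4%). Both arrays detected 546 probes (63.0%) and neither detected 241 (27.8%), while the spots of 28 probes disagreed. The share detected on both arrays was 71.3% over all 97373 probes with a usable spot. It was 55.6% for predicted RefSeq non-coding transcripts, 69.0% for the other lncRNA probes and 79.1% for the Agilent catalogue probes. By this share the curated transcripts lay between predicted ones and the rest of the lncRNA content, with no test, since probes of 1 array are not replicates. Spots disagreed for 1405 of 12137 predicted probes, against 28 of 867 curated ones. The shares detected on neither array were closer, 29.5% and 27.8%. A probe with 1 spot, as 436 of the curated ones had, cannot disagree, so the classes did not face the same rule.

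Detection is given next by kind of curated gene, as a description with no test. Probes of lncRNA genes were detected on both arrays in 61.3% of 648 cases, those of transcribed pseudogenes in 66.2% of 145, and those of protein-coding genes in 71.4% of 35. Of 155 probes of RIKEN-named genes whose clone code comes from the testis libraries 54.8% were detected on both arrays, and of 222 with other RIKEN codes 68.0%. Of lncRNA probes whose gene overlaps a protein-coding gene, 66.3% of 282 were detected on both arrays, against 57.4% of 366 with no such overlap. The strand that a probe reads is not given in the files, so a signal over an overlapping coding gene may come from either gene.

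Detection also differed with the promoter. Of the 867 probes 549 had a promoter entry, and 31.3% of these had a CpG-rich promoter, defined as at least 50% G and C with at least 0.6 of the CG count expected from base composition. Over 27025 genes in the table the share was 34.1%. Among the 172 probes with a CpG-rich promoter 136 (79.1%) were detected on both arrays and 24 (13.95%) on neither. Among the 377 with a CpG-poor promoter 207 (54.9%) were detected on both and 129 (34.2%) on neither. The gap was similar for lncRNA genes alone, 78.1% against 54.2%, and for genes with 1 start, 79.5% against 54.8%. It was widest for lncRNA genes clear of any coding gene, 81.7% of 93 against 48.6% of 214, and narrower for those overlapping one, 73.1% of 67 against 62.3% of 146. The median difference between arrays was 0.10 on the log2 scale for CpG-rich and 0.01 for CpG-poor promoters. Of the 136 CpG-rich probes detected on both arrays 5 were higher and 5 lower by at least 2-fold, and of the 207 CpG-poor ones 6 and 6. Over all probes 4.45% were higher and 4.54% lower, so these counts show nothing particular to a promoter class.

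**Figure D1:**
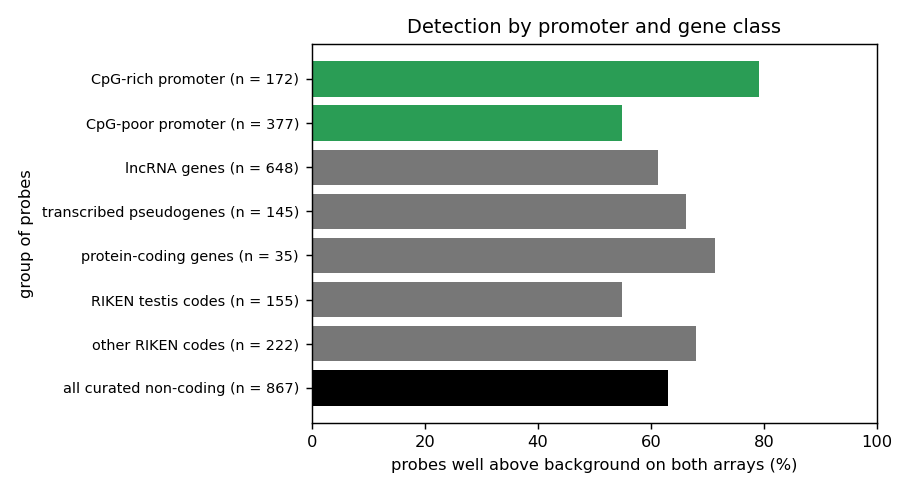
Share of probes well above background on both arrays, in percent from 0 to 100, for curated non-coding probes grouped by promoter class (green), by gene type or naming (grey) and in all (black), with the number of probes beside each name. The bar for CpG-rich promoters reaches 79.1% and that for CpG-poor promoters 54.9%, with all curated non-coding probes at 63.0%.

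The brightest probes were those for the RNA of RNase P, a non-coding isoform of Prmt6, pseudogenes and lncRNAs such as Norad. Probe sequences were not available, so whether a probe for a non-coding isoform also reads the coding mRNA of its gene was not checked. Levels are given as log2 of the processed signal, the background-subtracted intensity in arbitrary units, minus the 75th percentile of the same array, which was 8.36 for the control and 7.92 for the knockout. The order is one of probe brightness, since probes bind with different strength, and not of transcript amounts. The highest was the probe for a non-coding isoform of Prmt6, an arginine methyltransferase, with a signal of 31730 on the control and 30880 on the knockout array, or levels of 6.59 and 6.998. Rpph1, the RNA subunit of RNase P, which trims tRNA precursors, had 10520 and 9210, or 4.996 and 5.25. Snhg9, a host of a small nucleolar RNA that overlaps the ribosomal protein gene Rps2, had spots of 7384 and 9462 on the control and 8519 and 8481 on the knockout array. Norad, a lncRNA that binds Pumilio proteins and guards chromosome number, had 3029 and 3007 on the control and 2400 and 2535 on the knockout array, or levels of 3.19 and 3.35. E130102H24Rik, whose gene holds miR-101a, had 3009 and 1946, or 3.19 and 3.01, and was the only gene of the brightest 15 with a lower level on the knockout array under this scaling.

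Pseudogenes filled many of the other places among the 15. Gm6548, which lies in the Eif2ak2 locus, stood at 5.18 on the control and 5.69 on the knockout array, Gm11517 at 4.37 and 4.74, and 2610005L07Rik at 3.63 and 3.99. Gm13315 stood at 3.42 and 4.39. A probe for a pseudogene can also bind RNA of its parent gene, which was not tested. The lncRNA genes 1700008J07Rik (4.55 and 4.81), 1700084E18Rik (4.37 and 4.50), Kis2 (4.11 and 4.33) and E430016F16Rik (2.94 and 3.43) completed the list with 2 pseudogenes, Gm6498 and 3000002C10Rik, which were over 2-fold higher on the knockout array and are described below. With signals not corrected for background the same 15 genes were the brightest.

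**Figure D2:**
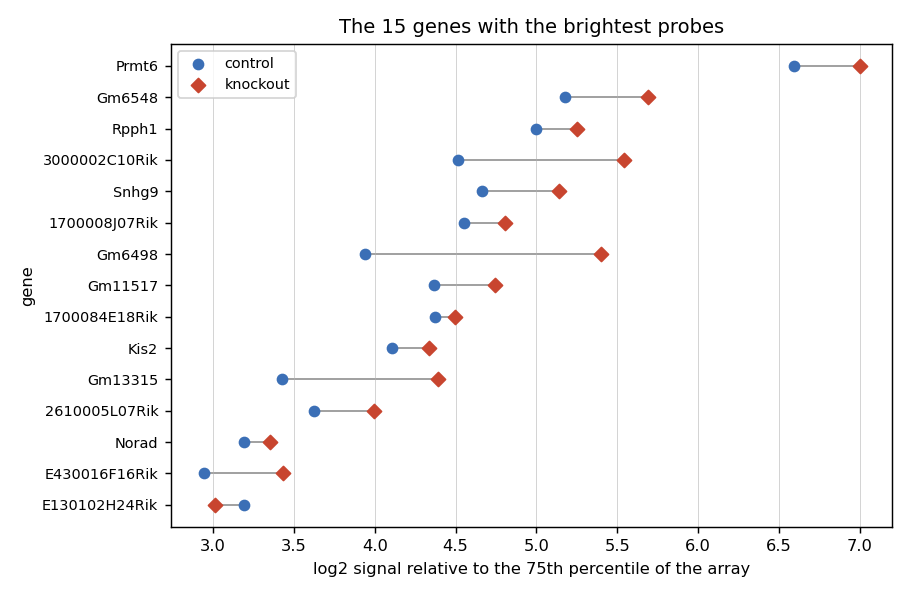
Levels of the 15 genes with the brightest curated non-coding probes on the control array (blue circles) and the knockout array (red diamonds), as log2 signal minus the array's own 75th percentile. Prmt6 lies highest at 6.59 and 6.998, and Gm6498 shows the widest gap of the 15, from 3.94 to 5.40.

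Between the arrays the curated transcripts differed in about the same share as probes in general. Of the 546 probes detected on both arrays 21 (3.85%) were at least 2-fold higher on the knockout array and 20 (3.66%) at least 2-fold lower. Over all 69405 probes detected on both, the shares were 4.45% higher and 4.54% lower, so that 7.51% of curated probes and 8.99% of all probes lay past 2-fold in either direction. The members' shares were therefore near the background, slightly under it in both directions. The median difference was 0.09 on the log2 scale, the middle of the probes lay between -0.23 and 0.36, and 306 of 546 (56.0%) were above 0, beside a median of 0.10 over all probes. By gene, 20 of 515 measured genes were at least 2-fold higher and 20 lower, and 358 (69.5%) differed by at most 0.5. The balance of the directions hangs on the scaling, since it was 14 higher and 29 lower under loess scaling and 9 and 50 with the spike-in controls set equal. That last setting shifts every difference by -0.36, so differences between 0 and that size turn negative under it.

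**Figure D3:**
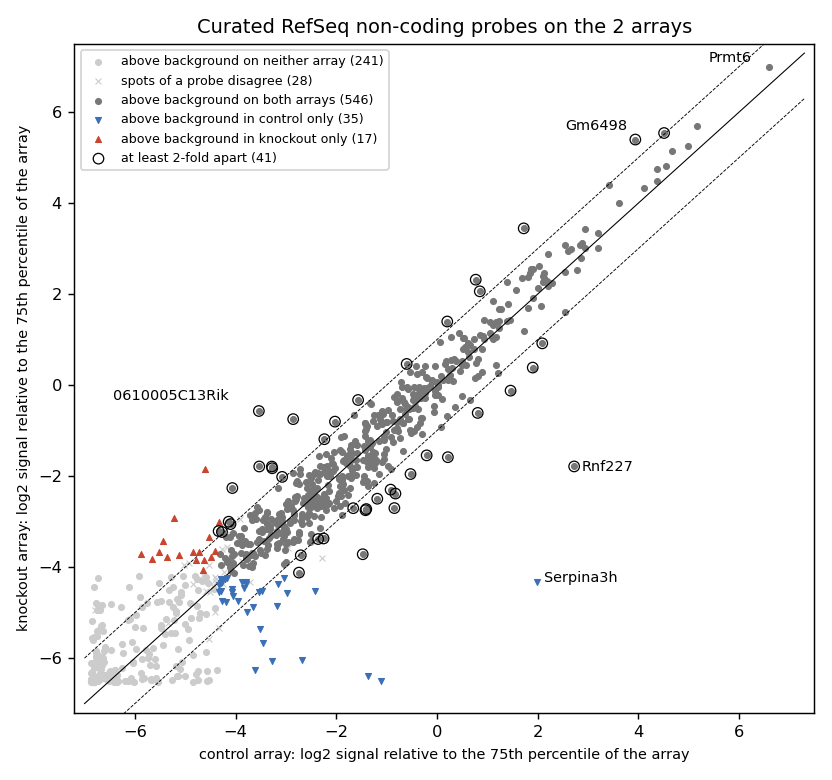
Level of each curated non-coding probe on the control array (horizontal) and the knockout array (vertical), as log2 signal minus the array's own 75th percentile, with the line of equal levels and dashed lines at 2-fold. Dark dots are the 546 probes above background on both arrays, of which the 41 ringed are at least 2-fold apart, and triangles are those seen on the control (35) or knockout (17) array only.

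The number of spots bears on how firm a single gene's difference is. Of the 867 probes 436 had 1 spot on the array and 431 had 2, before outlier spots were left out. On each array 429 had 2 usable spots. The median SD between paired spots was 0.11 on the control and 0.13 on the knockout array, on the log2 scale. Among the 41 probes at least 2-fold apart 14 had 2 spots. For these the spots of the arrays did not overlap in any case, and every pairing of spots was past 2-fold for 5 of 6 higher and 5 of 8 lower probes. Spots of 1 array share the same RNA, so this is agreement of the measurement and not of animals. Probes just inside the 2-fold limit were 3000002C10Rik at 1.03 and D030025P21Rik at -1.02, and just outside it were Olfr1077-ps1 at 0.99 and B130006D01Rik at -0.999.

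The largest increase belonged to 0610005C13Rik, a lncRNA gene that overlaps Bcat2, the mitochondrial branched-chain aminotransferase. Its spots read 35.0 and 23.1 on the control and 161.9 and 164.1 on the knockout array. All knockout spots were above all control spots, and the level went from -3.54 to -0.57, 7.83-fold. The second was 4933406I18Rik, which lies between Psma1 and Pde3b, at 45.6 and 144.0, or 4.31-fold. A second probe for this gene, designed on a RIKEN clone, was also higher on the knockout array, by 1.21 on the log2 scale against 2.11.

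Among bright probes the pseudogene Gm8709 went from 1089 to 2635, 3.30-fold, and Gm6498 from 5064 to 10200, 2.75-fold, each on 1 spot. 3000002C10Rik, also a pseudogene, had 7598 and 7451 on the control and 11600 and 10940 on the knockout array, or levels of 4.51 and 5.54. All 3 were in the top 10% of probes on the control array. 4732471J01Rik, a lncRNA gene that overlaps Lipe, the hormone-sensitive lipase of fat cells, and the adhesion genes Ceacam1 and Ceacam2, had probes for 2 transcripts. 1 of them had 579.5 and 546.1 on the control and 1185 and 1226 on the knockout array, 2.92-fold, while the other was 1.49-fold higher. Gm839 (2.32-fold), Gm3086 (2.36-fold), 1700120K04Rik (2.33-fold), B430010I23Rik in the Mtus1 locus (2.29-fold), Morf4l1-ps1 (2.09-fold) and Gm4285 beside Tpt1 (2.07-fold) made up the rest of the 12 largest increases at moderate or high level. With normexp correction 3000002C10Rik, 4732471J01Rik and those named last, other than Gm839, came under 2-fold. These genes have no role known with certainty, so they are named by position only.

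The largest difference of any curated probe was that of Rnf227, RefSeq NR_027827, named after a RING finger protein and listed as a lncRNA, which lies between Kcnab3 and Chd3. Its spots read 2144 and 2219 on the control and 69.4 and 70.6 on the knockout array. The control level of 2.73 was at percentile 95.0 of all probes and the knockout level of -1.79 at percentile 52.0, a difference of 22.8-fold. A RIKEN clone probe for the same gene was detected on the control array only, at -0.11 and -4.44. The gene was thus lower on the knockout array by 2 probes of different sequence source. E330013P04Rik, between Rab11fip2 and Fam204a, went from 118.7 to 18.4, 4.73-fold lower, and its clone probe was lower by 1.08 on the log2 scale.

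Other large decreases were found at moderate level. 1810019D21Rik, which overlaps Esrp2, an epithelial splicing regulator, read 365.4 and 402.2 on the control and 95.4 and 68.1 on the knockout array, 3.49-fold lower with no overlap of spots. The probe for a non-coding isoform of Scnn1b, the beta subunit of the epithelial sodium channel, went from 1233 to 315.9, 2.86-fold lower. It was the only call among the 25 probes of protein-coding genes detected on both arrays, where 8.99% of all probes were past 2-fold. So few probes show nothing particular to this class. Whether the Scnn1b probe also reads the coding mRNA was not checked. H2-Q5, an MHC class I pseudogene in the H2-Q cluster of near-identical copies, went from 952 and 867.7 to 216.1 and 228.6, 2.998-fold lower. Its relative H2-K2 was at 167 and 70.2, 1.74-fold lower and short of the limit. Gm16894, which overlaps the decoy interleukin receptor gene Il1r2, went from 183.5 to 37.1, 3.62-fold lower.

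The remaining large decreases were B230206H07Rik over Eps8l2 (2.95-fold, with its clone probe detected on neither array), D930048N14Rik over N4bp3 (2.69-fold), Marcksl1-ps4 (2.68-fold) and Gm5144 over Npr3 (2.60-fold). 2610307P16Rik and A330102I10Rik, which lie on either side of Sox4, a transcription factor of progenitor cells, were 2.53-fold and 2.51-fold lower. For A330102I10Rik the spots read 146.8 and 103.6 on the control and 25.2 and 51.3 on the knockout array, and a probe for another transcript of it was detected on neither array. Among dimmer probes 2310002F09Rik, between the kallikrein genes Klk13 and Klk12, was 2.17-fold lower, and Sprr2g, a pseudogene of the small proline-rich proteins of cornified epithelium, 2.05-fold lower. With normexp correction these and the decreases named since Gm16894, itself included, came under 2-fold, other than Marcksl1-ps4.

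**Figure D4:**
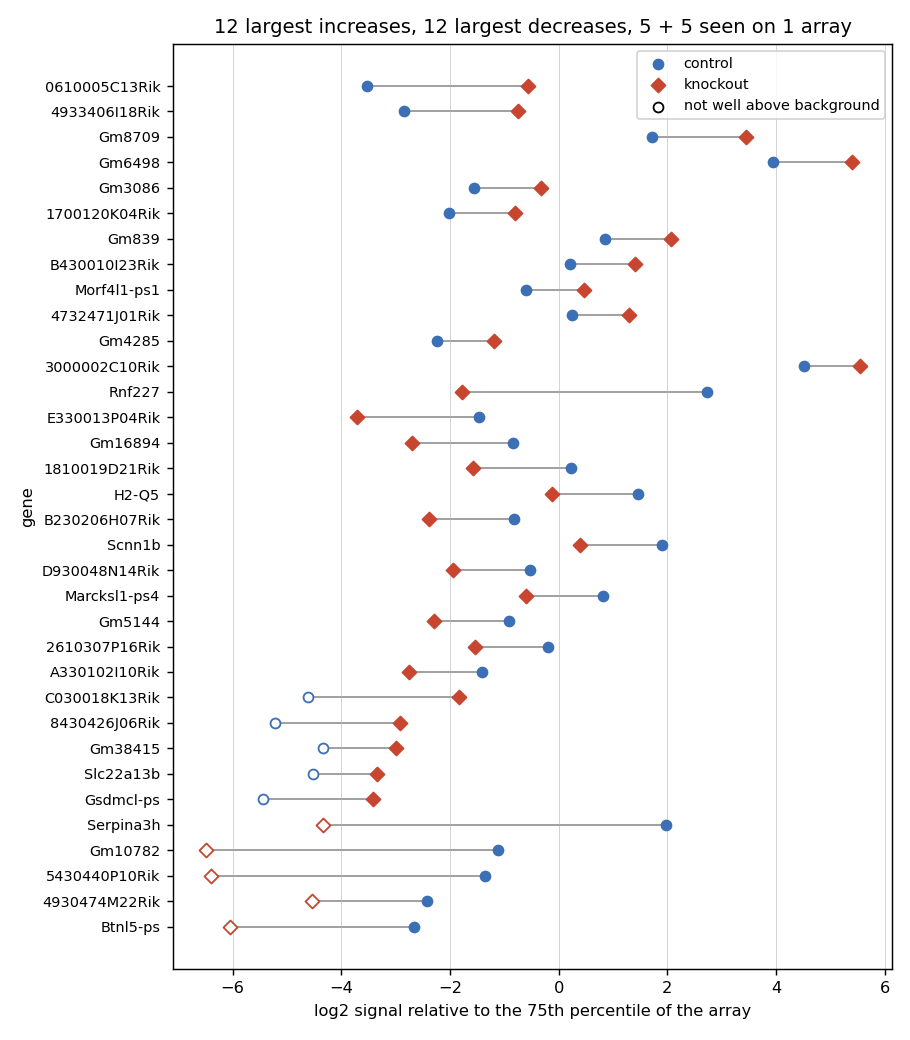
Control (blue circles) and knockout (red diamonds) levels, as log2 signal minus the array's own 75th percentile. Shown are the 12 largest increases and 12 largest decreases among genes whose brighter level was above the median of measured curated probes. The 5 largest bounds each way among probes seen on 1 array only are shown as well. Open symbols are not well above background; Rnf227 spans from 2.73 down to -1.79 and 0610005C13Rik from -3.54 up to -0.57.

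Some probes were above background on 1 array only. There were 35 seen on the control only (4.04%) and 17 on the knockout only (1.96%), where over all probes the shares were 2.52% and 1.08%. Both shares were above the background, with no test, but the number of spots per probe differed as well. Among the 436 curated probes with 1 spot, 24 were seen on the control only and 11 on the knockout only. Among the 431 with 2 spots the counts were 11 and 6. Across the array 19766 of 97904 deposited probes had 1 spot, and such a probe cannot have spots that disagree. Whether the gap to all probes remains at equal spot number was not tested. With spots taken as detected where positive and significant, the counts over all curated probes were 25 and 21. For these probes only a bound can be given, which sets the bright level against the dim one, or against the detection limit of the dim array where that is higher. The bound lay on the side of the brighter array for 27 of the 35 and all 17, and it was at least 2-fold for 9 and 5. It also rests on the spread of the faintest signals, since the lowest detected level was -4.52 on the control and -4.19 on the knockout array.

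Serpina3h led the probes seen on the control only. It is a pseudogene within the Serpina3 cluster of serine protease inhibitors, which holds close copies, and its single spot read 1302 on the control and 12 on the knockout array, at least 72.2-fold lower by the processed signal. With normexp background correction its bound was -3.93 on the log2 scale, far smaller. Gm10782, beside the chemokine gene Cxcl14, read 157.1 and 147.3 on the control and 2.64 and 2.70 on the knockout array, at least 8.44-fold lower, with a normexp bound of -1.55 on the log2 scale. 5430440P10Rik, between Ndfip2 and Spry2, was at least 7.11-fold lower, 4930474M22Rik, within Smoc2, at least 3.43-fold, and the butyrophilin-like pseudogene Btnl5-ps at least 2.87-fold. Their normexp bounds were -1.26, -0.45 and -0.55 on the log2 scale, so the last 2 did not keep the 2-fold limit. BC016548, which lies between the epithelial factors Ehf and Elf5, was also seen on the control only, with a bound of -0.59 on the log2 scale, short of 2-fold.

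Bounds in the other direction were smaller. C030018K13Rik, beside Tbc1d1, read 13.5 on the control and 67.4 on the knockout array with 1 of its probes, at least 6.41-fold higher (1.17 on the log2 scale with normexp), but its other probe was detected on both arrays and differed by -0.11. 8430426J06Rik (at least 3.04-fold), Gm38415 (at least 2.51-fold), Slc22a13b (at least 2.26-fold) and Gsdmcl-ps (at least 2.14-fold) followed, but with normexp all 4 came under 2-fold, at 0.72, 0.46, 0.44 and 0.57 on the log2 scale. The highest signal of these last 4 was 34.4.

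Host genes of small nucleolar RNAs, whose introns give the guides for chemical marks on ribosomal RNA, were all detected. All 7 measured were within 2-fold, 6 of 7 were above 0 and the median difference was 0.20, or -0.16 with the spike-ins set equal, beside 0.09 over all curated genes. In this and the lists that follow, calls stand beside 4.45% higher and 4.54% lower over all probes, and lists this small show little. Snhg5 read 1155 and 1252 on the control and 1430 and 1394 on the knockout array, 1.60-fold higher. Snhg8 went the other way, from 1101 to 552.4, 1.46-fold lower after scaling. Snhg9, Snhg3, Snhg16, Snhg7 and Snhg18 differed by 0.47, 0.01, 0.20, 0.13 and 0.35 on the log2 scale. Of their promoters 6 of 7 were CpG-rich and 5 of 7 held the letters TATAAA on either strand, where 10.9% of curated probes with an entry and 14.2% of all genes in the table did. In the Snhg5 and Snhg8 sequences printed above TATAAA begins 23 and 30 bases before the start, and in Snhg7 it begins 30 bases before it. In Snhg3 and Snhg9 it lies after the start, 22 and 34 bases on. The Cajal-body RNA Scarna13 stood at -0.79 and -0.36.

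Genes of nuclear organisation, X inactivation and imprinting were detected with few exceptions and none passed 2-fold. Airn, the antisense RNA that silences the imprinted Igf2r locus, read 220.0 and 228.2, or levels of -0.58 and -0.08. Firre, an X-linked organiser of nuclear contacts, stood at -0.86 and -0.98, and Ftx, of the X-inactivation centre, at -0.30 and -0.71. Kcnq1ot1, which silences imprinted genes around Kcnq1, was dim at -3.08 and -2.98 with control spots of 28.1 and 54.2. Tsix, the antisense partner of Xist, was on neither array. The 6 measured of 7 had a median difference of -0.01. Of the imprinted genes 5 of 6 were measured, with a median of 0.36, or 0.01 with the spike-ins set equal. Nctc1 (-1.43 and -0.84) and Igf2os (-2.82 and -2.46) were above 0 in difference and Peg13 (-0.06 and -0.46) below.

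MicroRNA host genes showed 1 call among 15 measured loci, where 8.99% of all probes were past 2-fold. Of 17 curated loci that contain a microRNA gene 15 had a probe detected on both arrays, 7 of them above 0, with a median difference of -0.01 and a range from -1.34 to 0.73. The lowest was 2610307P16Rik, the gene beside Sox4, which contains Mir6368, and none was at least 2-fold higher. Mirc35hg, the host of miR-182, miR-96 and miR-183, read 1431 and 1447 on the control and 1250 and 1216 on the knockout array with 1 probe, or 2.13 and 2.35, while its other probe was on neither array. Lncppara, which contains let-7b and let-7c, stood at -0.44 and -0.45. Dleu2, whose introns hold miR-15a and miR-16, was near the detection limit at -4.04 and -3.92. Mir9-3hg (1.85 and 2.47) and Mir22hg (0.91 and 1.07) were brighter. Mir1a-1hg, the host of the muscle microRNA miR-1, was at -2.56 and -2.68. These are levels of long host RNAs, and the amount of the mature microRNAs printed above was not measured by these probes.

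RNAs linked to p53, the activator of miR-34a, were bright and within 2-fold. Lncpint, a p53-induced lncRNA, read 1933 and 1912 on the control and 2115 and 2005 on the knockout array, 1.46-fold higher with no overlap of its spots. Trp53cor1, known as lincRNA-p21, had 620.3 and 578.3 on the control and 533.8 and 502.4 on the knockout array, a difference of 0.24 after scaling. The median of these and Mir22hg was 0.24, or -0.12 with the spike-ins set equal.

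Of 7 developmental antisense genes fixed for HOX and homeobox loci 4 were measured, with a median difference of -0.06. The brightest was Emx2os, antisense to the homeobox gene Emx2, with 289.1 on the control and 230.1 on the knockout array, or levels of -0.19 and -0.07. Hotair, a HOXC antisense RNA studied in breast tumours, read 41.7 and 25.8, or -2.98 and -3.23. Sox2ot went from -2.50 to -3.43 and Six3os1 from -4.18 to -3.33, short of 2-fold in opposite directions. Halr1 and Hottip were seen on the control only, near background, and Haglr on neither array. Over the 31 measured genes named as antisense by their symbol the median was 0.00. Of these 2 were at least 2-fold higher, Sox5os3 and Tbx3os2, and 1 lower, Speer4cos, beside 4.45% and 4.54% of all probes.

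Genes of other cell types gave no common direction. Carmn, the smooth muscle host of miR-143 and miR-145, was bright and level at 2.87 and 2.81, and Fendrr, of mesenchyme, stood at -1.45 and -1.34. Of the immune list 4 of 8 were measured, with a median of -0.30 and no call. That list holds H2-K2 but not its relative H2-Q5, a call with a difference of -1.58. AW112010, an interferon-induced RNA, stood at 1.91 on both arrays, and Morrbid, which controls the life span of myeloid cells, at 0.81 and 0.20. Of the skin list Gm5478 (-2.87 and -1.93) and 2310034G01Rik (-1.70 and -1.64) were measured, with differences of 0.94 and 0.07, while Serpina3h was the gene described above. Tincr, a lncRNA of differentiating epidermis outside that list, read 1920 on the control and 732.3 on the knockout array, a difference of -0.94 in the other direction. Sprr2g, a call also outside that list, differed by -1.04. Since Esr1 was the only marker with a named probe, the part of cell makeup in the decreases was not tested. Esr2 had a non-coding isoform probe at 2.03 and 2.61.

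By name class, the counts past 2-fold stand beside 4.45% higher and 4.54% lower over all probes. Of 230 measured RIKEN-named genes 8 were higher and 9 lower with a median of 0.09, or -0.27 on the spike-in scale. Of 127 genes with a Gm name 8 were higher and 4 lower, with a median of 0.20, or -0.16 with the spike-ins set equal. Within the RIKEN names, 85 probes with testis codes were detected on both arrays, 5 higher and 1 lower, with a median of 0.17. Of 151 such probes with other RIKEN codes 4 were higher and 8 lower, with a median of 0.05. These splits were not tested. Of 23 measured genes with a pseudogene symbol 1 was higher and 2 were lower. By RefSeq gene type, 96 probes of transcribed pseudogenes were detected on both arrays, with 7 higher and 7 lower. Of 397 such probes of lncRNA genes 14 were higher and 12 lower. The gene types were not tested against each other. Of the 23 detected probes of X-linked genes 0 were past 2-fold, where the share over all probes was 8.99%, and so few probes show nothing particular to the X chromosome.

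Where a gene had more than 1 probe, the probes did not always tell the same story. Of 32 genes with several curated probes 9 had at least 2 probes detected on both arrays, and 6 of these agreed in sign, with a median gap of 0.33 on the log2 scale. The largest gap was in 4930570G19Rik, at 1.80 for 1 transcript and -0.04 for another, and 1500011B03Rik had 0.57 and -0.57. In 8 genes 1 probe was detected on both arrays and another on neither. Clone-based probes served 40 of the genes. In the 23 pairs where both kinds were detected, 14 had the same sign with a Pearson r of 0.52, a description across genes that share the 2 arrays. The 3 pairs whose curated gene was past 2-fold all had 1 sign, 4933406I18Rik, E330013P04Rik and Pisd-ps3. Pairs also diverged, as for E130310I04Rik, at 0.37 by its curated probe and -1.69 by its clone probe.

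Of the 40 genes at least 2-fold apart, 10 stayed so under all 8 alternatives of scaling, background correction, outlier spots and source table, 4 higher and 6 lower. The 4 were 0610005C13Rik, 4933406I18Rik, Gm8709 and Gm6498. The 6 were Rnf227, 1810019D21Rik, H2-Q5, Scnn1b, Marcksl1-ps4 and Pisd-ps3. Median scaling, the deposited table and outlier spots kept left all 20 higher and 20 lower genes past 2-fold, so only the other settings dropped any. For Rnf227 the smallest difference was still 13.6-fold, and for 0610005C13Rik 3.33-fold. E330013P04Rik fell from 4.73-fold to 1.67-fold with normexp background correction, and Sprr2g to 1.08-fold. With that correction 5 of the 20 higher and 6 of the 20 lower genes stayed past 2-fold, and on the spike-in scale 7 of the 20 higher ones did. No called gene changed direction under these settings. Median scaling, spike-in scaling and the deposited table only shift all differences alike, the spike-ins by -0.36 and the others by less. Those settings could therefore not reverse a 2-fold difference.

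**Figure D5:**
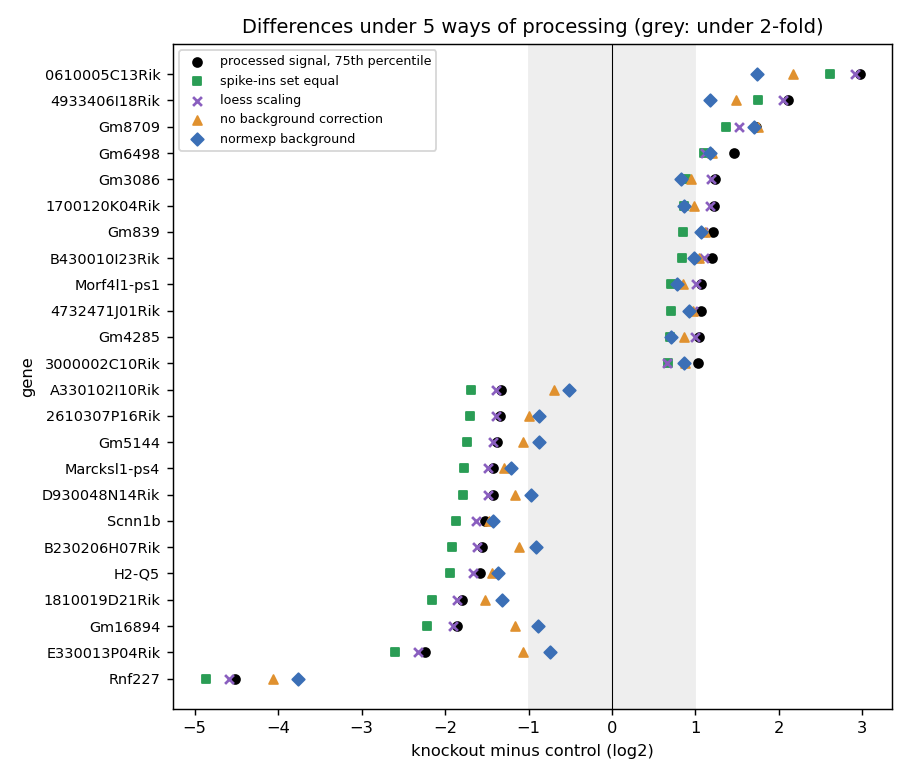
Knockout minus control on the log2 scale for the 24 genes with the largest differences, under 5 ways of processing (symbols), with the range under 2-fold in grey. Rnf227 stays below -3.76 under each, while the normexp value of E330013P04Rik, -0.74, lies in the grey range.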

How the data were processed

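Total RNA was amplified linearly and labelled with Cy3, per the labels, and read on 2 arrays of 180880 spots, 175906 of them non-control. The intensity values the authors deposited are output of Agilent Feature Extraction. The file headers give its version as 11.5.1.1 and the build as mm9, while 10.7 is the version per the submitters' processing notes. The processed signal is background-subtracted intensity. The authors' deposited table holds log2 values, each equal to the log2 processed signal minus 8.40 (control) or 7.95 (knockout), for 100% of single-spot probes within 0.001. Its columns have medians of -1.94 and -1.95, so scale and centring are known. Its direction is that of the levels themselves. No spot was saturated. Of non-control spots 77.3% and 75.4% were well above background, and of curated non-coding spots 68.9% and 66.9%.

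Here control and outlier spots were left out, log2 processed signals were averaged over a probe's spots, and each array's 75th percentile over 97373 probes was subtracted. Differences are knockout minus control, given for probes well above background on both arrays, and calls were made by size, at 2-fold or more. Since there is 1 array per genotype, no p-value was computed. Gene levels are means over probes. Symbols, neighbours, microRNAs and promoters came from RefSeq tables (GRCm38.p6), with 840 of the 871 probes matched by accession. No coordinates of probes are given, as the array's build differs. Alternatives were median, quantile, loess and spike-in scaling, normexp (offset 50, limma 3.58.1, R 4.3.3) and no background correction on median signals, as mean signals were not in the columns used, the deposited table, other filters and other fold limits. Other steps used Python 3.11.15, numpy 2.4.6 and pandas 2.3.3, and the calling step was checked on simulated data.

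The members and lists were chosen with earlier results of these data known. Named genes were the 15 brightest, the 12 largest differences each way above the median level, the 5 largest bounds each way, probes nearest the 2-fold limit, genes whose probes disagree and members of the lists. Thap6, 4930433N12Rik and Gm15471 were past 2-fold but under the median level. Tincr, BC016548, Esr2 and E130310I04Rik were picked after their values were seen.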

Additional observations from a re-analysis of the deposited data

How the results depend on the processing

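No paired analysis was possible because there is 1 array per genotype, and for the same reason no replicate could be left out. The counts of 21 higher and 20 lower probes were 6 and 6 with normexp, 10 and 11 with no background correction, 9 and 50 with the spike-ins set equal, 61 and 54 with no filter on dim probes, 7 and 4 with both levels above the median, 67 and 56 at 1.5-fold and 2 and 2 at 4-fold. Loess gave 14 and 29. The median of measured genes, 0.09, was -0.014 under loess and -0.26 with the spike-ins set equal, where the median of all probes, 0.10, was -0.25. The cause of these shifts was not tested, beyond the fixed shift of -0.36 that the spike-in setting makes by construction. Median, quantile and deposited-table settings and outlier spots kept gave 21 to 24 higher and 20 to 22 lower. Detection on both arrays was 546, or 563 when any spot sufficed, and probes seen on 1 array only were 25 and 21 when positive and significant spots were used. Under normexp the bound of Serpina3h was -3.93 and that of Gm10782 -1.55, and 8430426J06Rik, Gm38415, Slc22a13b, Gsdmcl-ps, 4930474M22Rik and Btnl5-ps came under 2-fold. Signal over background limits the dim probes: 9 of the higher and 5 of the lower calls had a brighter level under the median of measured probes.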
